A study of Mus musculus with 6 samples.

Results

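Fibroblast growth factor (FGF) ligands, their receptors and the genes that ERK signalling switches on to limit itself were examined in 6 mouse medulloblastomas, tumours of the cerebellum, on Affymetrix whole-transcript arrays. Members were chosen by gene symbol: numbered Fgf genes, symbols that begin with Fgfr1 to Fgfr4 or Fgfrl, the Spry and Spred genes, Dusp4, Dusp5, Dusp6, Etv4 and Etv5. This gave 40 of the 22180 genes on the array: 18 secreted ligands, 4 intracellular FGF homologues, 5 receptors, 7 Spry or Spred inhibitors, 3 ERK phosphatases and 2 ETS factors. The remaining member, Fgfr1op2, matched through its name alone and encodes no receptor.

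FGF ligands bind a receptor tyrosine kinase together with heparan sulfate, and the receptor passes the signal through adaptors and RAS to the kinases RAF, MEK and ERK. ERK then raises transcription of the ETS factors Etv4 and Etv5 and of its own brakes: Sprouty (Spry) and Spred proteins act on RAS and RAF, and the dual-specificity phosphatases Dusp4, Dusp5 and Dusp6 remove the activating phosphates. In the developing cerebellum, FGFs pattern the midbrain-hindbrain region, shape Bergmann glia and can oppose the proliferation that Sonic hedgehog (SHH) drives in granule neuron progenitors, the cells from which these tumours arise.

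The control tumours had the genotype Math1Cre::SmoM2Fl/+ (3 tumours, called wild type for Crebbp), and the others Math1Cre::CrebbpFl/FlSmoM2Fl/+ (3 tumours, called knockout). Both groups carried SmoM2, an active form of the SHH transducer Smoothened, so no tumour lacked the oncogene. Recombination was driven by Math1 (Atoh1), a gene of granule neuron progenitors, through a tamoxifen-dependent Cre that the sample names give as Math1CreERT2, and other cell types in the bulk tissue are not its targets. The Cre was switched on by a single dose of 1 mg tamoxifen at postnatal day 5, and animals with visible tumours were sampled at postnatal day 60. The age label reads postnatal day 5, which was taken as the day of induction. Whether each tumour stands for its own animal or litter is not stated, and p-values therefore measure only the spread between these samples, which may be technical. The comparison asks how loss of Crebbp, a histone acetyltransferase gene, bears on expression in established SHH tumours.

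Crebbp itself measured 11.80, 11.76 and 11.70 (log2) in the wild type arrays and 11.24, 11.34 and 11.20 in the knockout arrays. The groups did not overlap, but the log2 change of -0.50 (SE 0.09) missed the threshold (limma adjusted p = 0.0948), with p = 0.1 in a two-sided exact permutation test, its minimum for 3 and 3 arrays. Which exons were deleted is not stated, and whether the array feature covers them is unknown. Xist ranged from 5.13 to 5.74 in wild type and from 12.26 to 12.45 in knockout tumours, and the Y-linked Kdm5d from 9.32 to 9.37 and from 4.59 to 4.75. Wild type arrays thus carried the male and knockout arrays the female pattern, so that sex and genotype cannot be told apart in the comparison; 3 members (Fgf13, Fgf16 and Spry3) are X-linked. All 12 markers of the granule neuron lineage and of SHH tumours lay above the levels of absent genes (described below) on all 6 arrays. These markers included Atoh1, Barhl1, Zic1 and Gli1. The same held for all 12 astrocyte and Bergmann glia markers and all 12 microglia and macrophage markers. This check therefore does not single out the tumour lineage. Over all genes, 46 of 22180 passed an adjusted p of 0.05.

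Fgf5 was the only member past that threshold. The gene encodes a secreted FGF best known for ending the growth phase of the hair cycle. Its promoter is shown to place it in the genome and to carry the motif search. Beside it are those of Dusp6 and Spred2, ERK brakes whose log2 changes had opposite signs and did not pass. The sign for Dusp6 held for the feature used and not for its dimmer one (described below). Each run is the 250 bases before the RefSeq start (GRCm38.p6, 5′ to 3′, all on the plus strand): Fgf5 at chr5:98253934-98254183, Dusp6 at chr10:99262981-99263230 and Spred2 at chr11:19924192-19924441. Capitals mark matches to the motifs listed after the sequences.
Fgf5: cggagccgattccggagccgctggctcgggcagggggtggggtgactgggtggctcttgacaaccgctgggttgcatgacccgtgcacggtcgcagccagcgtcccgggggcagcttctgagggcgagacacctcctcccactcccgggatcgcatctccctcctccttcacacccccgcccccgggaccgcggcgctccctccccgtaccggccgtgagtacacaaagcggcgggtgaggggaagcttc
Dusp6: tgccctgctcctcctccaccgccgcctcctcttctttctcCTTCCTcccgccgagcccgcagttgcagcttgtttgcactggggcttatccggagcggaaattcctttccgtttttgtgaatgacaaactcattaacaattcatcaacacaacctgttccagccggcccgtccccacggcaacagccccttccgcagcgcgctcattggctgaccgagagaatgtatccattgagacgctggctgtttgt
Spred2: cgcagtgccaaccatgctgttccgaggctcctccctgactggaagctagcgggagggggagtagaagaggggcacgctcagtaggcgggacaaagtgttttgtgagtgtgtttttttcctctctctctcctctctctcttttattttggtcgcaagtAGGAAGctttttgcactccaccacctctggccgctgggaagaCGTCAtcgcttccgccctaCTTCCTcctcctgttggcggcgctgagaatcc

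Windows of 250 bases before to 50 after the start were found for 29 of the 40 members, 38 windows in all. They were searched on both strands for the cyclic AMP response element (CRE) TGACGTCA and its core TGACG, which the full element contains, for the ETS motifs CCGGAAG and AGGAAG, for the GLI motif TGGGTGGTC and for the SRF CArG box. The Fgf5 window held none of these letters. The Dusp6 window held AGGAAG once, and the Spred2 window held AGGAAG at 2 places and TGACG at 1. Over member windows the CRE core was found in 7 (18.4%, against 20.8% of all 32851 windows), AGGAAG in 10 (26.3% against 35.4%) and CCGGAAG in 1, that of Fgfrl1 (2.6% against 8.86%). The CArG box lay in the Dusp5 window only (2.6% against 1.63%), while the full CRE and the GLI motif were in 0 member windows, against 1.79% and 0.253% of all. These are matches of letters and show no binding.

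Fgf5 had log2 levels of 7.52, 7.57 and 7.13 in the wild type tumours and 8.87, 8.56 and 9.11 in the knockout tumours. Each knockout value lay above each wild type value, with a gap wider than the range within either group. The means were 7.41 ± 0.24 and 8.85 ± 0.27 (SD, n = 3 each), and Fgf5 rose by 1.44 on the log2 scale (SE 0.17, 95% interval 1.04 to 1.83), 2.71 times the wild type level (limma adjusted p = 0.0275). Among the 28 genes that rose past the threshold, it ranked 8 by size of change. With it, 1 of 40 members passed, against 0.207% of all genes. The direction held without each array in turn, but the call did not: the adjusted p was 0.112 without wild type replicate 1, 0.0923 without wild type replicate 2, 0.0966 without knockout replicate 1 and 0.131 without knockout replicate 3.

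The genes on both sides of Fgf5 on chromosome 5 did not pass. Prdm8, the neighbour before it, had mean levels of 11.71 and 11.62 (log2 change -0.09, SE 0.22, limma adjusted p = 0.905). Cfap299, the neighbour after it, had 4.93 and 5.50 (0.57, SE 0.22, adjusted p = 0.312), means within the range of absent genes described below. Of the next genes out, Antxr2 changed by 0.44 (SE 0.09, adjusted p = 0.121) and Bmp3 by 0.19 (SE 0.12, adjusted p = 0.55). The close relatives Fgf4 and Fgf6, which share the Fgf5 subfamily, differed in the other direction and did not pass.

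**Figure D1:**
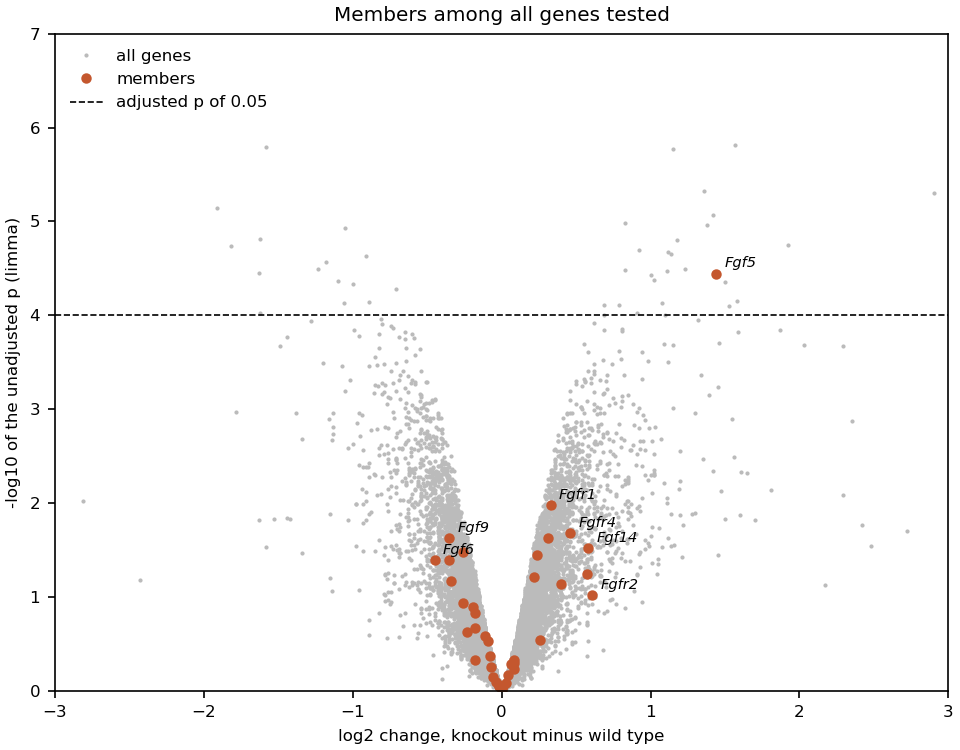
Each grey point is a gene, with its log2 change (knockout minus wild type) on the x axis and the negative log10 of the unadjusted limma p on the y axis, and members are in orange; 4 genes lie outside the plotted range. Fgf5, at 1.44, is the one member above the dashed line that marks an adjusted p of 0.05.

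The other 39 members did not pass, with adjusted p-values of 0.229 and above and log2 changes between -0.45 (Fgf6) and 0.61 (Fgfr2). An unadjusted p under 0.05 was reached by 10 of 40 members (25%), 6 higher and 4 lower in knockout tumours, against 13.8% of all genes. In 8 of 40 members (20%) every array of one group lay above every array of the other, close to the 19.6% of all genes. Of the 40 log2 changes, 19 were positive and 21 negative, with a median of -0.02 beside 0.00 for all genes. In 24 of the 39 the 95% interval stayed within 0.5 on the log2 scale in either direction, and in 36 within 1. The exceptions were Fgfr2, Fgfr3 and Fgf14, whose intervals reached 1.35, 1.16 and 1.09.

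**Figure D2:**
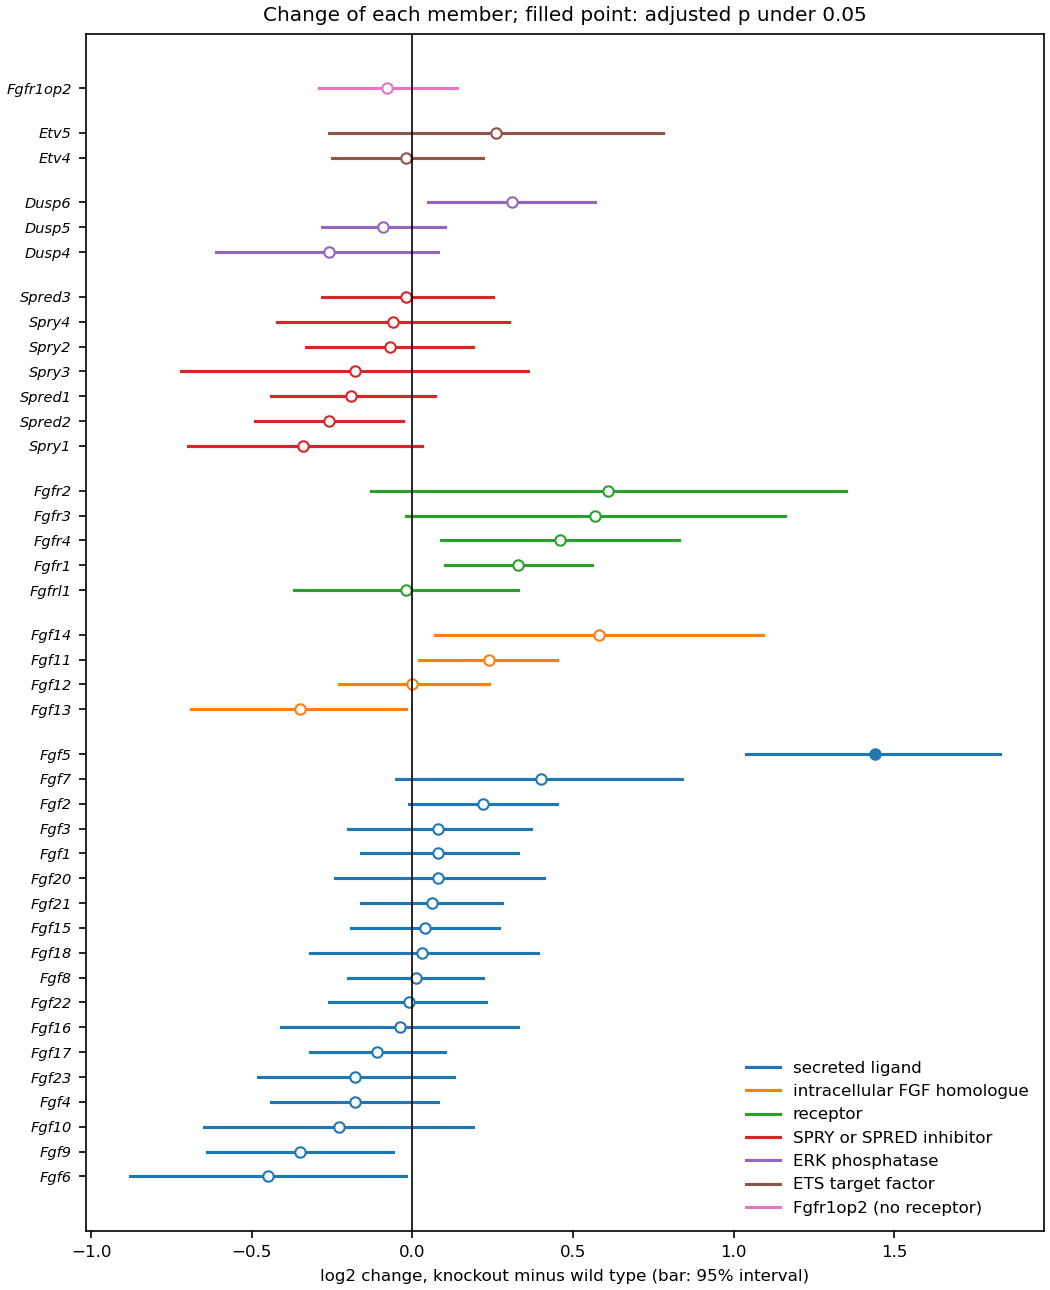
Points give the log2 change of each of the 40 members (x axis, knockout minus wild type), grouped by role, and bars the 95% interval from limma. The only filled point is Fgf5, and intervals of most others span 0, with Fgfr1, Fgfr4, Dusp6, Fgf11 and Fgf14 wholly above it and Fgf6, Fgf9, Fgf13 and Spred2 wholly below.

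Levels of dim members were set beside those of genes that should be absent, which were Xist on male-pattern arrays and the Y-linked Eif2s3y, Kdm5d and Uty on female-pattern arrays. These 12 values ran from 4.31 to 5.74 with a median of 5.11. This is a rough guide, since features differ in their own background, and levels of different genes are not compared as results. In all, 37 members lay above that range on all 6 arrays, while Fgf7, Fgf10 and Fgf16 reached into it. Most genes have means above the range: Fgf4, which cleared it on every array, stood at percentile 25.56 of all genes by mean level. Clearing the range is thus weak evidence of expression.

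Among secreted ligands other than Fgf5, only Fgf9 and Fgf6 reached an unadjusted p under 0.05. Fgf9, a ligand that neurons make and that Bergmann glia need to form their fibres, had levels of 9.77, 9.65 and 9.38 in wild type and 9.23, 9.37 and 9.14 in knockout tumours. The groups were barely separated, with wild type replicate 3 just above knockout replicate 2. The log2 change was -0.35 (SE 0.13, 95% interval -0.64 to -0.06, limma adjusted p = 0.291). Fgf6, a ligand known from muscle regeneration, had levels of 6.61, 6.97 and 6.41 in wild type and 5.95, 6.51 and 6.18 in knockout tumours, which overlapped (log2 change -0.45, SE 0.18, limma adjusted p = 0.338).

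The remaining ligands are given by subfamily, and none passed. Fgf1 and Fgf2, which lack a classical secretion signal, had log2 changes of 0.08 and 0.22. For Fgf2 the wild type values (6.50, 6.45 and 6.51) lay below the knockout values (6.55, 6.82 and 6.75), with an adjusted p of 0.387. Fgf7 and Fgf10, which signal from mesenchyme to epithelium through a form of Fgfr2, had changes of 0.40 and -0.23, and their relatives Fgf3 and Fgf22, a presynaptic organiser, 0.08 and -0.01. Fgf8, Fgf17 and Fgf18, the ligands of the midbrain-hindbrain organiser, had changes of 0.01, -0.11 and 0.03, with 95% intervals that lay within -0.32 to 0.39. Fgf16 and Fgf20, the relatives of Fgf9, had changes of -0.04 and 0.08. The endocrine ligands Fgf15, Fgf21 and Fgf23 had changes of 0.04, 0.06 and -0.18. Fgf3, Fgf4 and Fgf15 are neighbours on chromosome 7 and Fgf6 and Fgf23 on chromosome 6. The first group had changes of 0.08, -0.18 and 0.04 and the second of -0.45 and -0.18.

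The intracellular homologues Fgf11 to Fgf14 are not secreted and do not act through FGF receptors as their relatives do; they bind voltage-gated sodium channels. Of the 4, 3 had an unadjusted p under 0.05, in both directions, against 13.8% of all genes, and none passed over all genes. Fgf14, the gene mutated in a spinocerebellar ataxia, had levels of 9.69, 9.42 and 8.85 in wild type and 9.63, 9.96 and 10.11 in knockout tumours. Knockout replicate 1 lay below wild type replicate 1, and wild type replicate 3 was the lowest of all. The log2 change was 0.58 (SE 0.22, 95% interval 0.07 to 1.09, limma adjusted p = 0.309), and it ranged from 0.35 to 0.76 when each array was left out in turn.

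Fgf11 had levels of 7.41, 7.23 and 7.42 in wild type and 7.54, 7.61 and 7.62 in knockout tumours, which did not overlap (log2 change 0.24, SE 0.09, limma adjusted p = 0.326). The X-linked Fgf13, which also stabilises microtubules in growing neurons, had levels of 8.07, 8.33 and 7.80 in wild type and 7.69, 7.63 and 7.84 in knockout tumours. Knockout replicate 3 lay within the wild type range, and the log2 change was -0.35 (SE 0.14, adjusted p = 0.338). Fgf12 had means of 8.86 in both groups.

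Of the markers of mature granule neurons and of Purkinje and inhibitory neurons, 0 passed the threshold in limma; 4 of 10 and 8 of 12 had an unadjusted p under 0.05 (13.8% of all genes). The mean log2 level of 10 mature granule neuron markers was 8.62 to 8.77 in wild type and 8.83 to 9.78 in knockout tumours. Of these genes, 9 of 10 lay above the absent-gene range on all arrays, with Gabra6 the exception. Log2 changes were positive in 7 and negative in 3. In 1 (10%) the groups did not overlap, against 19.6% of all genes. Within the knockout group the mean of this list was 9.78, 8.83 and 9.76. Single genes differed from the mean. Wild type replicate 3 lay above knockout replicate 2 in Gabra6 (8.53 and 7.74) and Cbln3 (8.36 and 8.17). In Syt1 (8.26) and Fat2 (7.96) it was the lowest of all 6 arrays. For 12 Purkinje cell and inhibitory neuron markers the mean was 6.80 to 7.26 in wild type and 7.32 to 7.82 in knockout tumours. Of these genes, 10 lay above the absent-gene range, with Skor2 and Lhx5 the exceptions. Log2 changes were positive in 11 and negative in 1, Lhx1 (-0.49). In 4 (33.3%) the groups did not overlap, against 19.6% of all genes. The part of these cells in the changes of the Fgf11 to Fgf14 group was not tested. In bulk tissue, fewer cells of a type and less RNA per cell cannot be told apart.

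The 4 kinase receptors all had positive log2 changes, and none passed; the fifth gene, Fgfrl1, a receptor without a kinase domain, had means of 8.61 and 8.58 (-0.02, SE 0.15, limma adjusted p = 0.966). Fgfr1, the main receptor of neural progenitors, had levels of 8.53, 8.62 and 8.71 in wild type and 9.05, 8.98 and 8.83 in knockout tumours. The groups did not overlap, with knockout replicate 3 nearest to the wild type arrays. The log2 change was 0.33 (SE 0.10, 95% interval 0.10 to 0.56, adjusted p = 0.229), the smallest adjusted p among members after Fgf5. Fgfr4 had levels of 7.54, 7.86 and 7.67 in wild type and 8.34, 8.30 and 7.82 in knockout tumours. Knockout replicate 3 fell below wild type replicate 2, and the log2 change was 0.46 (SE 0.16, adjusted p = 0.281).

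Fgfr2 and Fgfr3, the receptors of the glial lineages in brain, had one wild type array that stood with the knockouts. Fgfr2 had levels of 8.09, 7.86 and 9.04 in wild type and 9.36, 8.53 and 8.92 in knockout tumours (log2 change 0.61, SE 0.32, limma adjusted p = 0.456). Fgfr3 had levels of 6.71, 6.61 and 7.53 in wild type and 7.87, 7.36 and 7.34 in knockout tumours (0.57, SE 0.26, adjusted p = 0.38). In both genes wild type replicate 3 exceeded 2 of 3 knockout values, while wild type replicates 1 and 2 were the lowest of all. Without wild type replicate 3 the changes were 0.96 for Fgfr2 and 0.86 for Fgfr3 (adjusted p = 0.123 and 0.0952), still short of the threshold. Without wild type replicate 2 they were 0.37 and 0.40 (adjusted p = 0.764 and 0.691), and without knockout replicate 1 they were 0.40 in both genes (0.721 and 0.651).

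In the mean of astrocyte and Bergmann glia markers, wild type replicate 3 again stood with the knockout tumours. The mean log2 level of the 12 markers was 9.42, 9.38 and 10.14 in wild type and 10.16, 9.98 and 10.09 in knockout tumours, with all 12 above the absent-gene range on every array. It ran from 9.38 to 10.14 and from 9.98 to 10.16, so the groups overlapped through wild type replicate 3. Of the 12 genes, 9 had positive and 3 negative log2 changes. An unadjusted p under 0.05 in limma was reached by 3, all higher (25%, against 13.8% of all genes). Not every gene followed the mean: in Sox9 and Gdf10, wild type replicate 3 was the lowest wild type array (9.89 and 7.63). Oligodendrocyte lineage markers, 11 measured and all above that range, ran from 8.66 to 9.27 in wild type and from 8.67 to 8.95 in knockout tumours. The part of glial cells in the levels of Fgfr2 and Fgfr3 was not tested.

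**Figure D3:**
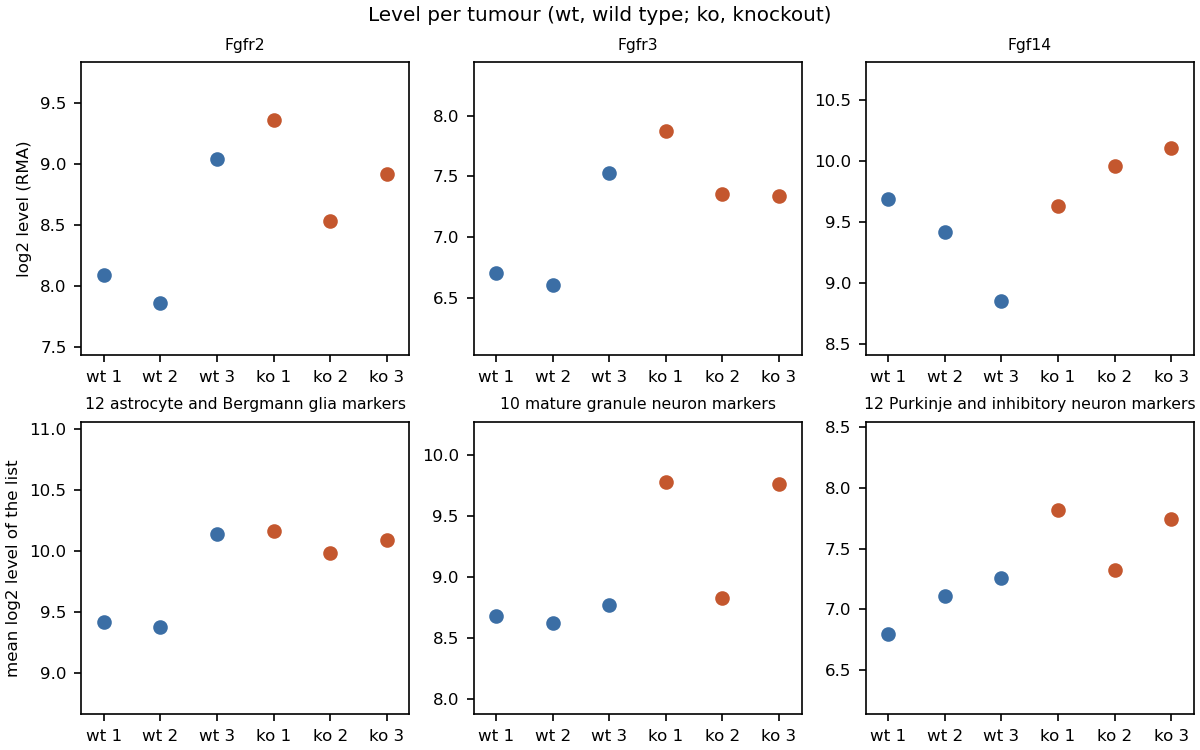
The upper row plots the log2 level of Fgfr2, Fgfr3 and Fgf14 in each tumour, and the lower row the mean log2 level of 3 marker lists in the same tumours, with wild type in blue and knockout in orange. Wild type replicate 3 stands with the knockout tumours in Fgfr2 (9.04), Fgfr3 (7.53) and the glial markers (10.14). In the mature granule neuron markers it is the highest wild type array (8.77), just below knockout replicate 2 (8.83).

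Of the transcripts that report ERK activity, none passed the threshold. Dusp6, the cytoplasmic ERK phosphatase and a standard readout of FGF signalling, had levels of 10.02, 9.98 and 9.74 in wild type and 10.23, 10.34 and 10.11 in knockout tumours. All knockout values were the higher ones, and the log2 change was 0.31 (SE 0.11, 95% interval 0.05 to 0.57, limma adjusted p = 0.291). A second, dimmer feature of Dusp6 went the other way, from 4.99 to 5.94 over the 6 arrays with a change of -0.45 (SE 0.19), partly within the absent-gene range, and the mean of both features gave -0.07. The nuclear phosphatase Dusp5 had levels of 9.70, 9.65 and 9.65 in wild type and 9.53, 9.61 and 9.59 in knockout tumours, narrowly separated, with a change of -0.09 (SE 0.08, adjusted p = 0.671). Dusp4, also nuclear, had means of 8.64 and 8.37 (-0.26, SE 0.15, adjusted p = 0.486), and its groups overlapped.

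Etv5 had levels of 9.10, 9.31 and 8.40 in wild type and 9.34, 9.26 and 9.00 in knockout tumours, overlapping, with wild type replicate 3 lowest (log2 change 0.26, SE 0.23, limma adjusted p = 0.666). Etv4 had means of 7.49 and 7.47, a change of -0.02 with a 95% interval of -0.25 to 0.22. For Etv5 the interval was wider, from -0.26 to 0.78.

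All 7 Sprouty and Spred genes had negative log2 changes, from -0.34 (Spry1) to -0.02 (Spred3), with a median of -0.18, and none passed. Spred2, an inhibitor of RAF activation by RAS, had levels of 10.24, 10.15 and 10.01 in wild type and 9.97, 9.86 and 9.79 in knockout tumours. The groups did not overlap, with wild type replicate 3 just above knockout replicate 1, and the log2 change was -0.26 (SE 0.10, limma adjusted p = 0.319). Spred1, which recruits neurofibromin to the membrane, had levels of 10.27, 10.47 and 10.14 in wild type and 10.15, 10.15 and 10.02 in knockout tumours (-0.19, SE 0.11, adjusted p = 0.503). Knockout replicates 1 and 2 lay just above wild type replicate 3.

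Spry1 had means of 8.66 ± 0.16 and 8.32 ± 0.29 (SD, n = 3 each), with an adjusted p of 0.401. Spry2, the most studied Sprouty, had a change of -0.07 (95% interval -0.33 to 0.19) and Spry4 one of -0.06 (-0.42 to 0.30). The X-linked Spry3 varied most within the wild type group, from 7.33 to 8.28, and had a change of -0.18. With wild type replicate 1 left out the median was -0.04, with replicate 2 left out -0.10 and with replicate 3 left out -0.26. The shared sign of the 7 genes depended on single arrays: 2 turned positive without wild type replicate 2 or knockout replicate 3, and 1 without wild type replicate 1, knockout replicate 1 or knockout replicate 2. Fgfr1op2, which encodes a protein named as a fusion partner of FGFR1, had levels of 9.70, 9.84 and 9.75 in wild type and 9.73, 9.74 and 9.59 in knockout tumours (log2 change -0.08, SE 0.09, adjusted p = 0.766).

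**Figure D4:**
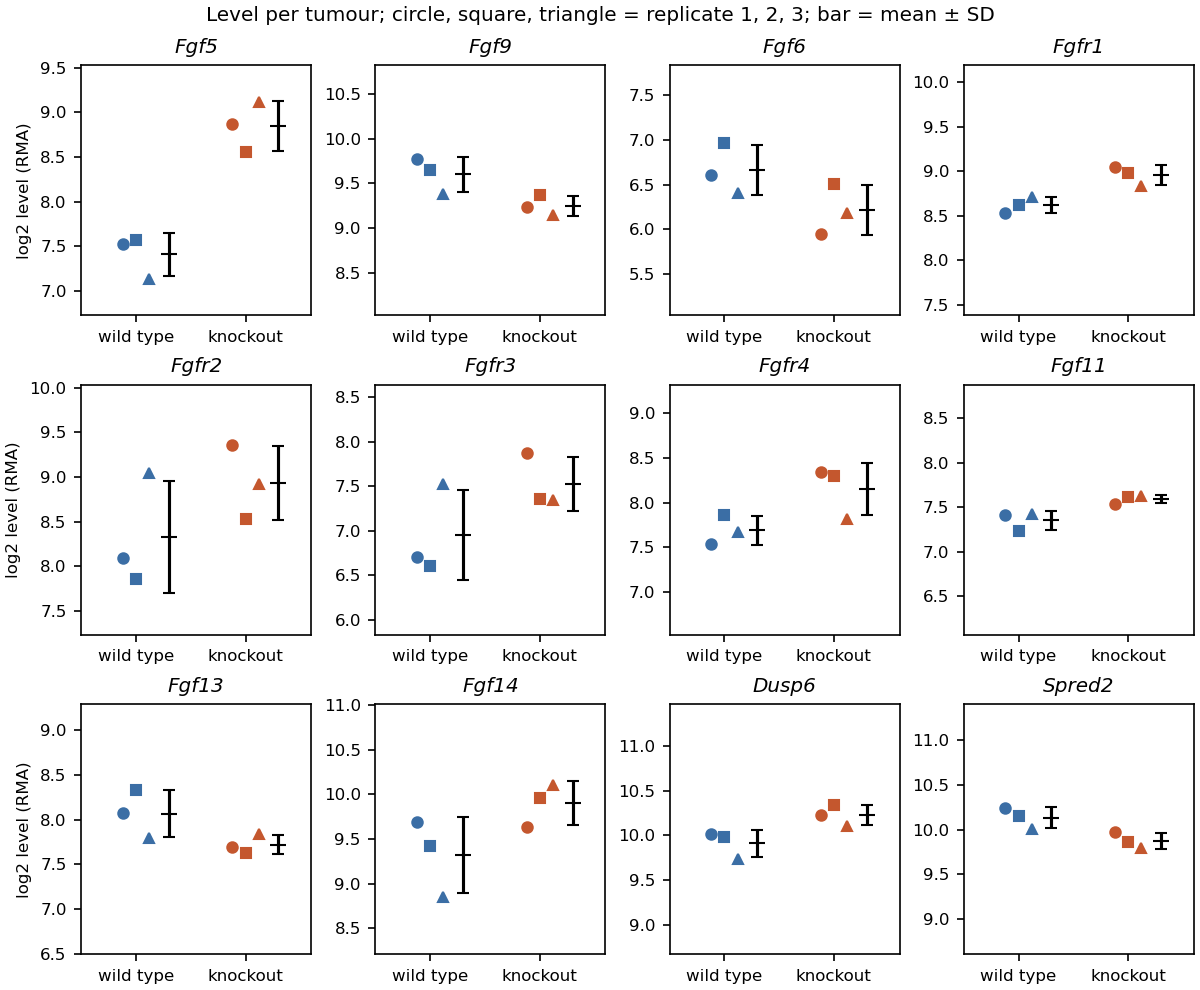
Log2 levels of 12 members in each tumour, with wild type in blue, knockout in orange, symbols for replicates and black bars for mean ± SD; the y axes differ in position and have the same span. Fgf5 shows the widest gap between groups, from 7.57 to 8.56, while Fgfr2, Fgfr3, Fgf6, Fgf13, Fgf14 and Fgfr4 overlap.

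Genes around the FGF pathway were taken from 5 lists, with 112 of 124 genes measured and members left out. Of these, 0 passed the threshold in limma, 24 had an unadjusted p under 0.05 (21.4%, against 13.8% of all genes), 9 higher and 15 lower, and the median log2 change was -0.05. Among 11 co-receptors and modulators, Flrt3, a membrane protein that binds FGF receptors, went from a mean of 8.40 to 8.93 (0.53, SE 0.16, adjusted p = 0.232) and the adhesion molecule Ncam1 from 11.88 to 11.72 (-0.16, SE 0.08, adjusted p = 0.461). Among 22 adaptors and RAS-ERK cascade genes, the RAS inhibitor Rasa1 had a change of -0.29 and the RAS activator Sos1 one of -0.25 (SE 0.10 and 0.09, adjusted p = 0.277 and 0.297).

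Heparan sulfate genes, 28 measured, had 5 members lower and 1 higher at an unadjusted p under 0.05 (21.4%, against 13.8% of all genes), and in 21.4% the groups did not overlap, near the 19.6% of all genes. Sulf2, a secreted enzyme that removes sulfate groups from heparan sulfate chains, went from a mean of 9.97 to 9.06 (log2 change -0.91, SE 0.23, limma adjusted p = 0.18), and the neuronal syndecan Sdc3 from 10.44 to 9.96 (-0.48, SE 0.13, adjusted p = 0.198). Without wild type replicate 3, Sulf2 (-1.18, adjusted p = 0.0296) and the heparan sulfate sulfotransferase Hs6st3 (-0.92, adjusted p = 0.042) passed, in a setting where the calls over all genes went from 46 to 99; Hs6st3 is named because of that result. Leaving out any of the other 5 arrays gave 0 pathway genes past the threshold. With all arrays Hs6st3 had a change of -0.59 (adjusted p = 0.365).

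Among 32 other ERK-responsive and feedback genes, 3 were higher and 6 lower at an unadjusted p under 0.05 (28.1%, against 13.8% of all genes), and in 25% the groups did not overlap (19.6% of all genes). Dusp3, a phosphatase that acts on ERK and JNK, had a log2 change of 0.44 (SE 0.11, limma adjusted p = 0.177) and Fosl2, an AP-1 factor, one of -0.39 (SE 0.10, adjusted p = 0.182). Among 20 other receptor tyrosine kinases, Pdgfra, a receptor of oligodendrocyte precursors, had a change of -0.45 (SE 0.13, adjusted p = 0.207) and Egfr one of 0.31 (SE 0.13, adjusted p = 0.34). All 12 microglia and macrophage markers lay above the absent-gene range. Their mean level was 9.37 to 9.58 in wild type and 9.04 to 9.33 in knockout tumours. For 12 granule neuron lineage and SHH tumour markers it was 10.95 to 11.15 and 10.85 to 10.94. Neither mean overlapped between groups, but both were separated only narrowly. Log2 changes were positive in 1 and negative in 11 of the microglia and macrophage markers. In the granule list they were positive in 4, among them Ptch1 (0.33) and Gli1 (0.30), and negative in 8, among them Neurod1 (-1.13). The groups did not overlap in 50% and 66.7% of the genes of these lists, against 19.6% of all genes. The part of these cells in the Sprouty, Spred and pathway values was not tested.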

How the data were processed

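The values are log2 expression that the authors deposited after RMA with oligo, per the submitters' processing notes, with software versions and genome build not given in the sources used here. Since RMA subtracts background, equalises the arrays' distributions and summarises probes, it takes out shifts common to most genes. There were 41345 features, with array medians from 6.91 to 7.00. The platform annotation gave 23521 features 1 gene symbol, 1814 several and 16010 none. For the 1082 genes with several features (4 members among them) the feature with the highest mean was used.

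The 22180 genes entered limma 3.58.1 (R 4.3.3; lmFit, then eBayes; two-sided p-values) without rescaling. Adjustment was by Benjamini-Hochberg over the whole table, and the threshold was 0.05. Changes are knockout minus wild type. The number of arrays, 3 per group, limits the precision. Arrays correlated at 0.98 to 0.99, none was a copy of another, and the fit was tested on simulated data. The number in the titles was not taken to pair tumours: deviations of same-numbered arrays correlated at -0.03, 0.05 and 0.10.

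Members and lists were chosen with earlier results of these data known. Values of each array are given for members past the threshold or with an unadjusted p under 0.05, for Fgfr1 to Fgfr4 and for the 5 members with the highest mean, and in addition, chosen after their values were seen, for Fgf2 and Etv5. For each pathway list, the 2 genes with the smallest p are named. Promoters come from RefSeq (GRCm38.p6). Alternatives covered scaling, variance model, array weights, dim genes, features per gene, a replicate block, X and Y genes, the threshold and each array.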

Additional observations from a re-analysis of the deposited data

How the results depend on the processing

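The number of genes past the threshold, 46, was 107 with limma-trend, 77 without the dimmest 25% of genes, 131 at an adjusted p of 0.1 and 12 with a replicate block, and from 4 to 128 without single arrays. Of the members, 0 passed with the replicate block, where Fgf5 kept its change of 1.44 (limma adjusted p = 0.107), and 0 to 1 without single arrays. The number with an unadjusted p under 0.05, 10, ran from 5 to 14 without single arrays. Pathway genes past the threshold ranged from 0 to 2. The median change of members was -0.06 with arrays centred on their medians, -0.07 after quantile normalization and from -0.02 to 0.04 without single arrays; these scalings moved the median of all genes by -0.04 and -0.03. Crebbp, at -0.50 in each case, passed with limma-trend, without the dimmest 50% of genes and at an adjusted p of 0.1, and ranged from -0.54 to -0.47 without single arrays. Dusp6 turned to -0.07 with the mean of its 2 features, the dimmer of which changed by -0.45. The log2 change of Fgf5 lay between 1.30 and 1.58 in every setting tried, and its adjusted p between 0.0131 and 0.131. Background correction could not be varied, since only summarised values were used.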
